A study of Homo sapiens with 12 samples.

Results

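Of the immediate early genes outside the AP-1 family, 8 genes, IER2, IER3, IER5, EGR1, EGR2, EGR3, NR4A1 and NR4A3, were followed in RNA-seq of a leukemia line with and without PTPN21 overexpression and with and without vincristine (VCR). The genes were chosen by name, as 8 of the 60671 rows of the expression table, and each name matched 1 row. IER2 was chosen on its own values in these libraries, because its difference between PTPN21 and control cells changed direction with the drug, so all IER2 values are given as a description with no test. The other 7 genes were listed with it as members of its class.

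Total RNA came from cells labelled Jurkat, a line derived from a human T cell leukemia, in 4 groups of 3 libraries, all collected after 48 h. Control cells (NC) carried the pHIV7/SFFV-GFP lentiviral vector according to the methods of the study and are labelled WT in the sample labels. PTPN21 cells carried pHIV7/SFFV-PTPN21-3×FLAG, which drives PTPN21, a non-receptor tyrosine phosphatase, from a viral promoter. Each was given VCR, a drug that binds tubulin and blocks the mitotic spindle, or DMSO, its solvent. The groups were thus NC+DMSO and NC+VCR for the control cells, and PTPN21+DMSO and PTPN21+VCR for the overexpressing ones. The dose of VCR is not given for these libraries in the sources used here. Nothing in the labels says whether the 3 libraries of a group came from separate cultures, so p-values measure the spread between these libraries only.

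Immediate early genes are transcribed within minutes of a stimulus, without new protein synthesis, because the factors that switch them on already sit in the cell. The RAS-ERK cascade phosphorylates ternary complex factors such as ELK1, which bind with SRF at CArG boxes, CREB acts at cAMP response elements, and calcium acts through calcineurin, NFAT and MEF2. In T cells EGR1, EGR2, EGR3, NR4A1 and NR4A3 follow stimulation of the T cell receptor, whereas the IER genes also respond to many kinds of stress. Most of their transcripts are short-lived.

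The sequence upstream of 3 of these genes is shown because IER2 and EGR1 had similar patterns over the libraries and IER5 had a different one. Each is the 250 bases before the RefSeq start (GRCh38.p14), on the plus strand, and capitals mark every match to 1 of 5 motifs searched on both strands. The motifs were the CArG box, the core of the cAMP response element (TGACG), the GC box (GGGCGG), an ETS site (CCGGAAG) and a TATA box (TATAAA), and none of the matches printed overlapped another motif. The windows are chr19:13150161-13150410 for IER2, chr5:138465229-138465478 for EGR1 and chr1:181088450-181088699 for IER5.

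IER2: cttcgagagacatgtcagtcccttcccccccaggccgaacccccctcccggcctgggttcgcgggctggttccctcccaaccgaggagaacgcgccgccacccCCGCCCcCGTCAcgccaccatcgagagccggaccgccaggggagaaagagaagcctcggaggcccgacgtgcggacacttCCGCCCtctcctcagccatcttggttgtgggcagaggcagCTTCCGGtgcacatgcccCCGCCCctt

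EGR1: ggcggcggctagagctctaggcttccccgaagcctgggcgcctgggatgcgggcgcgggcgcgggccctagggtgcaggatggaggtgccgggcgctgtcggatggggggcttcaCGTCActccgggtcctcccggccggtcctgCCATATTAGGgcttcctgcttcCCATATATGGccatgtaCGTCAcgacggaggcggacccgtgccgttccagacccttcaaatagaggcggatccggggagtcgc

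IER5: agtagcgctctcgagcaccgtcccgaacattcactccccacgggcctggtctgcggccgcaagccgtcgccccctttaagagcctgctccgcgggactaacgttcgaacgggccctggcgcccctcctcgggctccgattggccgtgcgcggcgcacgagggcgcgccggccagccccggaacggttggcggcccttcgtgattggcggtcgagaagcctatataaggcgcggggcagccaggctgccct

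The IER2 window held 3 GC boxes, at 147 to 142, 67 to 62 and 9 to 4 bases before the start, 1 ETS site at 27 to 21 and 1 cAMP response element core at 140 to 136. The EGR1 window held 2 CArG boxes, at 105 to 96 and 83 to 74 bases before the start, and 2 cAMP response element cores at 135 to 131 and 66 to 62. The IER5 window had no match to the 5 motifs as spelled. Near matches were not counted in any window, such as tataag in that of IER5, which differs from TATAAA in its last letter. Of 35116 promoter windows of this length, 1.16% held a CArG box, 21.2% a cAMP response element core, 42.6% a GC box, 8.52% the ETS site and 10.7% the TATA box. A match is a run of letters and not a measured binding site. RefSeq promoter entries matched 6 of the 8 genes, and IER3 and EGR3 had none.

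The authors deposited FPKM, the fragments of a gene scaled to its length and to the fragments of the library. The depth, estimated from the steps in which low FPKM values fall, was 14300000 to 16200000 fragments in NC+DMSO and 22300000 to 23800000 in PTPN21+DMSO, against 16900000 to 17900000 in NC+VCR and 20300000 to 22100000 in PTPN21+VCR, and since every PTPN21 library was deeper than every NC library, depth and the PTPN21 construct cannot be told apart. PTPN21 went with the labels, with a mean FPKM of 0.0638 ± 0.0378 (SD, n = 3) in NC+DMSO and 8.82 ± 1.48 in PTPN21+DMSO, against 0.367 ± 0.205 in NC+VCR and 5.74 ± 1.21 in PTPN21+VCR. Defining T cell markers were mostly absent from the libraries labelled Jurkat. Of 8 T cell markers only CD3D reached a mean FPKM of 1, and their summed FPKM was 62.7 to 95.4 in NC+DMSO, below the 107 to 141 of all other libraries. CD28 and LCK were listed at 0 in all 12 libraries, and CD3E did not exceed 0.146 in any. The erythroid marker HBA1 was present, and the summed FPKM of the 2 erythroid markers HBA1 and HBB was 82.5 to 87.5 in NC+DMSO and 133 to 190.0 in PTPN21+DMSO, against 49.4 to 59.5 in NC+VCR and 60.2 to 75.5 in PTPN21+VCR. HBB itself did not exceed 1.66 FPKM in any library. Of 4 further genes looked at after these values were seen, the T cell genes CD247 and CD5 were listed at 0 in all libraries, and the erythroid factors GATA1 and KLF1 were lower in all VCR than in all DMSO libraries. GATA1 was at 57.4 to 106 FPKM with DMSO and 13.5 to 25.3 with VCR, and KLF1 at 23.4 to 39.7 with DMSO and 1.39 to 3.72 with VCR. Summed B cell markers were at 0.234 to 1.84 FPKM with MS4A1 at 0 throughout, and summed myeloid markers, mostly LYZ, were at 10.1 to 20.4. With these values the identity of the line is in doubt. It rests on the labels and the methods of the study and was not tested. The part that the makeup of the cells played in the results was not tested either, and in bulk RNA fewer cells of a type and less RNA per cell cannot be told apart.

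NC+DMSO replicate 3 stood apart from the other 11 libraries. It had 12510 genes at 1 FPKM or more, against 10437 to 11644, and 712 antisense genes at that level, against 294 to 458. AC011446.2, which shares 946 exon bases with IER2 on the opposite strand, was at 15.0 FPKM in this library and at 0 to 0.711 in the others. AC025259.3, which shares 754 exon bases with NR4A1, was at 5.10 FPKM there and at 0 in the other 11. IER3-AS1, which shares 359 exon bases with IER3, ranged from 2.27 to 7.82 FPKM. Whether the counting used strand is not stated, so reads from these genes and their antisense partners cannot be told apart, and values without this library are given below.

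IER2, which encodes a small nuclear regulator of transcription, spans 13150415 to 13154908 on the plus strand of chromosome 19 (ENSG00000160888, GENCODE release 29, GRCh38). Its FPKM was 15.6, 21.3 and 23.6 in the NC+DMSO libraries and 2.66, 6.16 and 3.97 in the PTPN21+DMSO libraries. With VCR, it was 5.38, 3.16 and 4.61 in NC cells and 12.5, 12.2 and 10.7 in PTPN21 cells. All NC+DMSO libraries lay above all others, PTPN21+VCR came next, and NC+VCR and PTPN21+DMSO overlapped at the bottom.

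The mean FPKM of IER2 was 20.1 ± 4.12 (SD, n = 3) in NC+DMSO and 4.26 ± 1.77 in PTPN21+DMSO, against 4.38 ± 1.13 in NC+VCR and 11.8 ± 0.949 in PTPN21+VCR. On the log2(FPKM + 1) scale, the difference of PTPN21 from NC cells was -2.04 with DMSO and 1.27 with VCR. The difference of VCR from DMSO was -1.98 in NC cells and 1.33 in PTPN21 cells, and the 4 groups combine to an interaction of 3.31. These comparisons share groups, and because the gene was chosen on this pattern none of the values was tested. In these groups the summed erythroid markers, nearly all HBA1, were higher in the PTPN21+DMSO than in the NC+DMSO libraries and lower in all VCR libraries. HBB, which was low, had higher means with VCR. Its mean FPKM was 0.555 in NC+VCR against 0 in NC+DMSO, and 0.13 in PTPN21+VCR against 0.0915 in PTPN21+DMSO. The summed T cell markers, nearly all CD3D, were lower in NC+DMSO, where IER2 and EGR1 were highest, than in all other libraries. CD3G and CD7, also low, had their highest group means in NC+DMSO, at 0.539 and 0.265 FPKM. The part of these markers in the IER2 and EGR1 values was not tested. Without NC+DMSO replicate 3, the values that use that library were -1.92 for PTPN21 with DMSO, -1.86 for VCR in NC cells and 3.19 for the interaction.

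IER2 had an approximate 164 to 1035 fragments per library. The gene is GC-rich, with 61.7% GC in its longest transcript and 3072 exon bases in all, and 92.2% of the genes tested had a lower GC content. With a correction for GC content and length, the VCR difference was -1.42 in NC cells and 1.92 in PTPN21 cells, so the directions stood and the sizes moved.

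IER3, which encodes a stress-induced protein that acts on cell survival and on ERK signalling, spans 30743199 to 30744554 on the minus strand of chromosome 6 (ENSG00000137331). Its FPKM was 6.83, 11.7 and 9.19 in NC+DMSO and 7.37, 7.56 and 5.13 in PTPN21+DMSO, against 16.3, 17.5 and 15.5 in NC+VCR and 15.8, 18.7 and 18.6 in PTPN21+VCR. All 6 VCR libraries lay above all 6 DMSO libraries, and NC and PTPN21 libraries overlapped under both treatments.

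IER3 rose with VCR in NC cells, from a mean FPKM of 9.24 ± 2.44 (SD, n = 3) to 16.4 ± 0.978, a log2 difference of 0.79 (standard error 0.200, limma adjusted p = 0.00946). It also rose with VCR in PTPN21 cells, from 6.69 ± 1.35 to 17.7 ± 1.67, a log2 difference of 1.29 (standard error 0.200, limma adjusted p = 0.000637). PTPN21 cells and NC cells were not separated by the test, at -0.40 with DMSO (limma adjusted p = 0.230) and 0.10 with VCR (limma adjusted p = 0.858). The interaction was 0.50 (standard error 0.283, limma adjusted p = 0.437), so the VCR effect was not shown to differ between the cells.

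IER5, which encodes a protein that brings phosphatase PP2A to the heat shock factor HSF1, is a single-exon gene at 181088712 to 181092899 on the plus strand of chromosome 1 (ENSG00000162783). Its FPKM was 8.17, 8.43 and 10.5 in NC+DMSO and 7.33, 10.7 and 8.92 in PTPN21+DMSO, against 27.1, 25.3 and 30.6 in NC+VCR and 21.3, 18.6 and 19.0 in PTPN21+VCR. Every VCR library lay above every DMSO library, and with VCR every NC library lay above every PTPN21 library.

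IER5 rose with VCR in NC cells, from a mean FPKM of 9.04 ± 1.28 (SD, n = 3) to 27.6 ± 2.71, a log2 difference of 1.52 (standard error 0.166, limma adjusted p = 5.91e-05). In PTPN21 cells it rose from 8.97 ± 1.67 to 19.6 ± 1.47, a log2 difference of 1.06 (standard error 0.166, limma adjusted p = 0.0007). Under VCR, PTPN21 cells differed from NC cells by -0.47 on the log2 scale (standard error 0.166, limma adjusted p = 0.165), which did not pass. The libraries of these groups did not overlap, but how many of all genes had no overlap here was not counted. With DMSO the difference was -0.02 (limma adjusted p = 0.968), and its sign changed with the scaling. The interaction was -0.46 (standard error 0.235, limma adjusted p = 0.397).

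IER3 and IER5 rose under VCR as the summed erythroid markers, nearly all HBA1, went down to 49.4 to 75.5 FPKM, from 82.5 to 190.0 with DMSO. GATA1 and KLF1 went down by more, KLF1 from a mean FPKM of 25.1 to 2.33 in NC cells and from 34.8 to 3.66 in PTPN21 cells. The part of the cells' makeup in these rises was not tested. The rises were as large without NC+DMSO replicate 3, at 0.80 for IER3 and 1.62 for IER5 in NC cells. Over all 23 alternatives for each rise, the log2 difference was between 0.61 and 1.22 for IER3 and between 1.42 and 1.88 for IER5 in NC cells, and between 1.14 and 1.75 for IER3 and between 0.94 and 1.24 for IER5 in PTPN21 cells, and all passed the threshold. Many of the alternatives cannot move the difference and can change only its p-value.

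**Figure D1:**
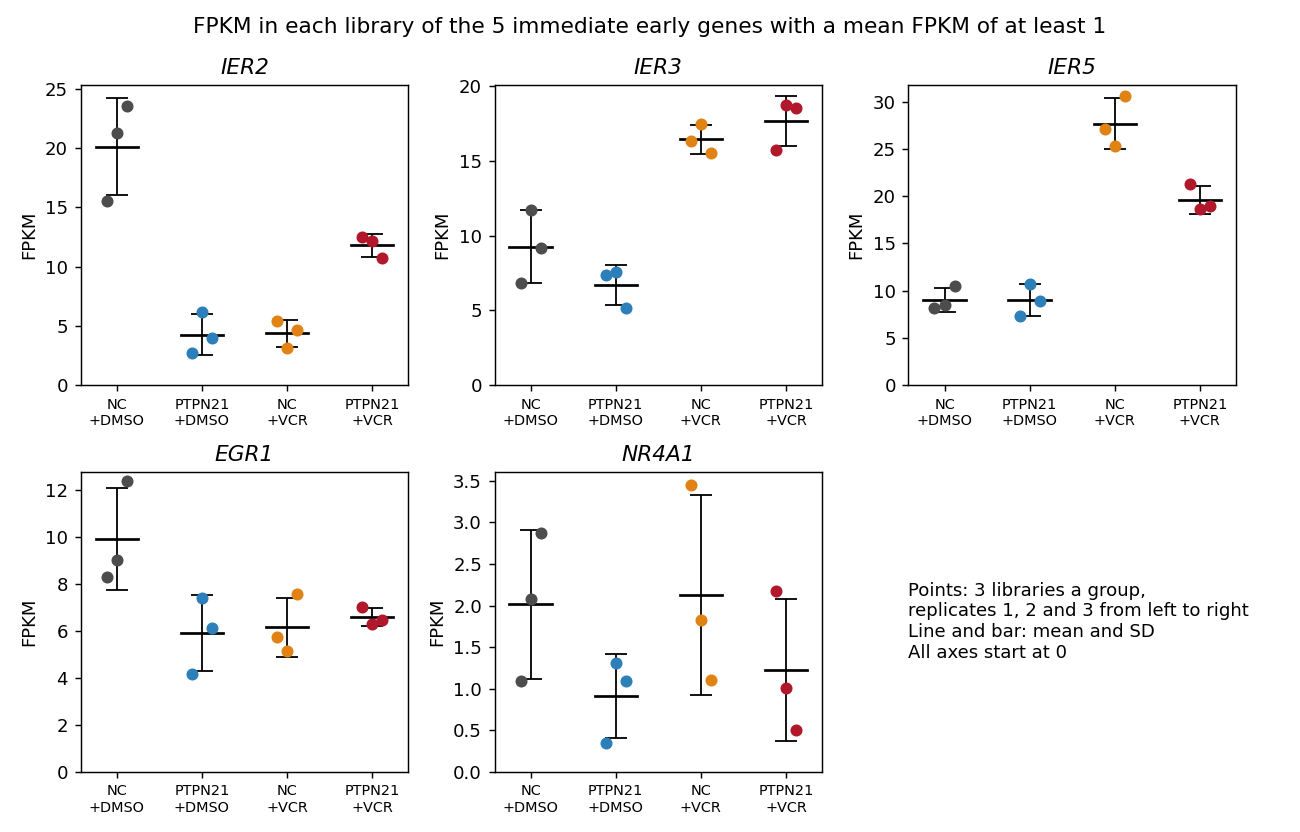
FPKM of IER2, IER3, IER5, EGR1 and NR4A1 (vertical axes, linear, from 0) in the 3 libraries of each of the 4 groups (horizontal axes), with points for libraries and a line and bar for the mean and SD. IER3 and IER5 lie higher in all VCR libraries than in all DMSO libraries, and IER2 is at 15.6 to 23.6 FPKM in NC+DMSO and at 10.7 to 12.5 in PTPN21+VCR, above both other groups.

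EGR1, the zinc-finger transcription factor through which many growth signals act, spans 138465490 to 138469315 on the plus strand of chromosome 5 (ENSG00000120738). Its FPKM was 8.29, 9.02 and 12.4 in NC+DMSO and 4.17, 7.38 and 6.13 in PTPN21+DMSO, against 5.74, 5.14 and 7.54 in NC+VCR and 7.03, 6.29 and 6.46 in PTPN21+VCR. All NC+DMSO libraries lay above the rest, and the other 3 groups overlapped with their neighbours in the order of the means.

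The mean FPKM of EGR1 was 9.89 ± 2.17 (SD, n = 3) in NC+DMSO and 5.89 ± 1.62 in PTPN21+DMSO, against 6.14 ± 1.25 in NC+VCR and 6.59 ± 0.389 in PTPN21+VCR. No difference passed the threshold. The log2 difference was -0.67 for PTPN21 with DMSO (standard error 0.224, limma adjusted p = 0.0898) and -0.60 for VCR in NC cells (standard error 0.224, limma adjusted p = 0.0519). The second of these passed in 5 of 23 alternatives, with limma adjusted p from 0.036 to 0.595, and was -0.16 with the GC and length correction. Without NC+DMSO replicate 3, which had the highest EGR1 value, the differences were -0.51 and -0.45. With VCR the difference of PTPN21 from NC cells was 0.10 (limma adjusted p = 0.870), and the interaction was 0.77 (standard error 0.316, limma adjusted p = 0.311).

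EGR2 and EGR3, zinc-finger factors linked with T cell anergy and NFAT, were near the limit of detection. EGR2 (chromosome 10, 62811996 to 62919900, minus strand) was at 0 to 0.303 FPKM, listed at 0 in 4 of 12 libraries, with at most about 20 fragments. EGR3 (chromosome 8, 22687659 to 22693302, minus strand) was at 0 to 0.0987 FPKM, listed at 0 in 4 libraries, with at most about 10 fragments. Both stayed under the minimum of a mean FPKM of 1 and were not tested, and a difference between groups was not detectable at this depth.

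NR4A1, the orphan nuclear receptor Nur77, spans 52022832 to 52059507 on the plus strand of chromosome 12 (ENSG00000123358). Its FPKM was 1.09, 2.08 and 2.87 in NC+DMSO and 0.343, 1.31 and 1.09 in PTPN21+DMSO, against 3.45, 1.82 and 1.10 in NC+VCR and 2.17, 1.01 and 0.501 in PTPN21+VCR. All 4 groups overlapped, and the spread within a group was wide.

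The mean FPKM of NR4A1 was 2.01 ± 0.892 (SD, n = 3) in NC+DMSO and 0.915 ± 0.507 in PTPN21+DMSO, against 2.13 ± 1.21 in NC+VCR and 1.23 ± 0.856 in PTPN21+VCR. On the log2 scale, PTPN21 cells differed from NC cells by -0.65 with DMSO (standard error 0.368, limma adjusted p = 0.294) and -0.49 with VCR (limma adjusted p = 0.544). The VCR difference was 0.03 in NC cells (limma adjusted p = 0.957) and 0.19 in PTPN21 cells (limma adjusted p = 0.744), and the interaction was 0.16 (limma adjusted p = 0.913). The library with the antisense signal held the highest NC+DMSO value of NR4A1, and without it the PTPN21 difference with DMSO was -0.44.

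NR4A3, the related receptor NOR1 (chromosome 9, 99821855 to 99866891, plus strand), was listed at 0 in 9 of 12 libraries, among them all 3 NC+DMSO libraries. Its highest value was 0.178 FPKM, about 20 fragments, in NC+VCR replicate 1. EGR2, EGR3 and NR4A3 had no call when the minimum was dropped, with a lowest limma adjusted p of 0.399.

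Of the 8 genes, 5 reached the minimum and 4 of these were tested. With DMSO, 0 of the 4 passed between PTPN21 and NC cells in limma, and 1 had an unadjusted p under 0.05, where 6.34% of the 11591 genes tested passed (2.65% higher and 3.69% lower) and 25.6% had such an unadjusted p. With VCR, again 0 of the 4 passed in limma and 1 had an unadjusted p under 0.05, where 1.82% of all genes passed (1.0% higher and 0.82% lower) and 17.1% had such an unadjusted p. For VCR in NC cells, 2 of the 4 passed, both higher, where 36.2% of all genes passed (7.91% higher and 28.3% lower). For VCR in PTPN21 cells, the same 2 genes, IER3 and IER5, passed, where 28.5% passed (9.22% higher and 19.3% lower). The interaction had 0 of the 4 in limma, with 1 at an unadjusted p under 0.05, where 0.129% of all genes passed (0.0259% higher and 0.104% lower) and 14.0% had such an unadjusted p.

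The median log2 difference of all genes tested was -0.36 for VCR in NC cells and -0.17 in PTPN21 cells, and median ratio scaling, which centres each library on its typical gene, moved it to -0.04 and -0.01. Under that scaling the rise of IER3 was 1.15 in NC and 1.47 in PTPN21 cells and that of IER5 1.88 and 1.24, and the higher share of the calls for VCR in NC cells went from 21.9% to 55.8%. For VCR in PTPN21 cells that share went from 32.3% to 52.3%, and for PTPN21 with DMSO from 41.8% to 73.4%, with 423 genes higher and 153 lower.

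**Figure D2:**
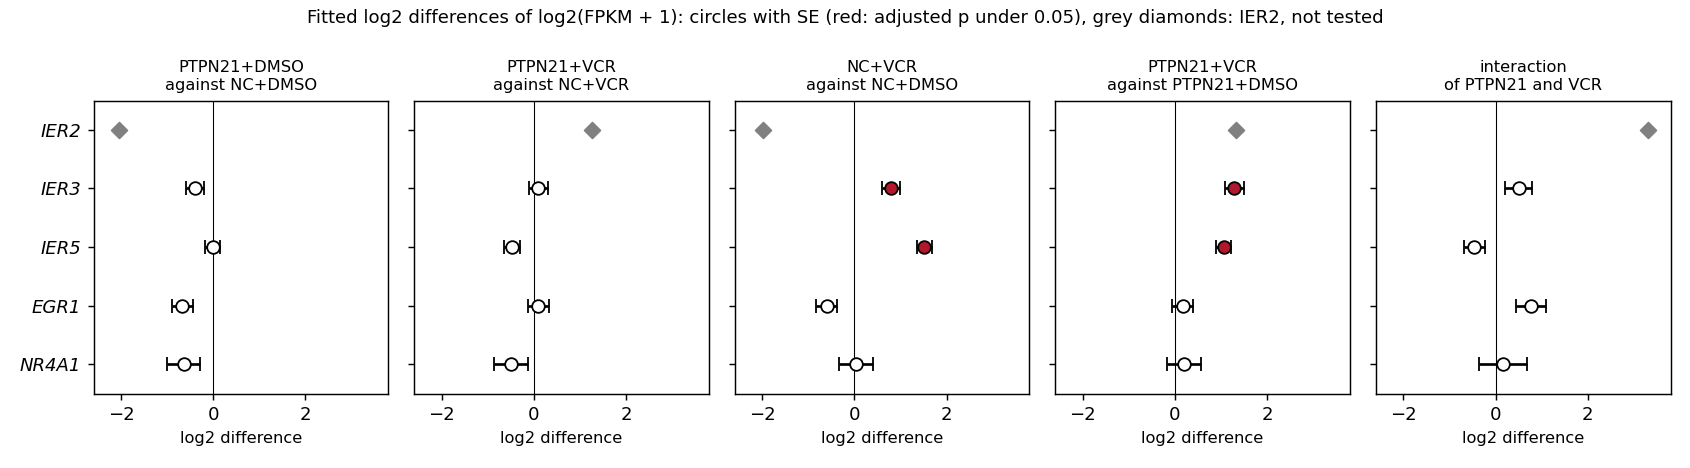
Log2 difference of log2(FPKM + 1) (horizontal axes) for IER2, IER3, IER5, EGR1 and NR4A1 (rows) in the 5 comparisons (panels), with circles for fitted differences, bars for 1 standard error, red for a limma adjusted p under 0.05 and grey diamonds for IER2, which was not tested. IER3 and IER5 pass in both VCR comparisons, at 0.79 and 1.52 in NC cells and 1.29 and 1.06 in PTPN21 cells, and no other circle is red.

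The genes with the pattern most like that of IER2 were ranked by Pearson's correlation of log2(FPKM + 1) over the 12 libraries, which is a description since IER2 was chosen for its pattern and the libraries share their groups. They were SLC39A9 (0.934), a zinc transporter, AC018647.2 (0.920), TAF11 (0.914), a subunit of the general transcription factor TFIID, AC093297.2 (0.900) and POP4 (0.885), a subunit of RNase P. SLC39A9 had a mean FPKM of 2.61 ± 0.564 (SD, n = 3) in NC+DMSO and 0.848 ± 0.418 in PTPN21+DMSO, against 0.926 ± 0.344 in NC+VCR and 1.76 ± 0.370 in PTPN21+VCR. TAF11 went from 29.8 ± 0.436 in NC+DMSO to 20.3 ± 1.06 in NC+VCR and was at 21.9 ± 1.73 in PTPN21+DMSO and 24.9 ± 1.68 in PTPN21+VCR. On the log2(FPKM + 1) scale their ranges over the groups were narrower than that of IER2, which was chosen for its pattern. This scale understates changes of low genes such as SLC39A9. Among the immediate early genes, EGR1 had a correlation of 0.818 with IER2, NR4A1 0.339, IER3 0.0861 and IER5 -0.233.

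**Figure D3:**
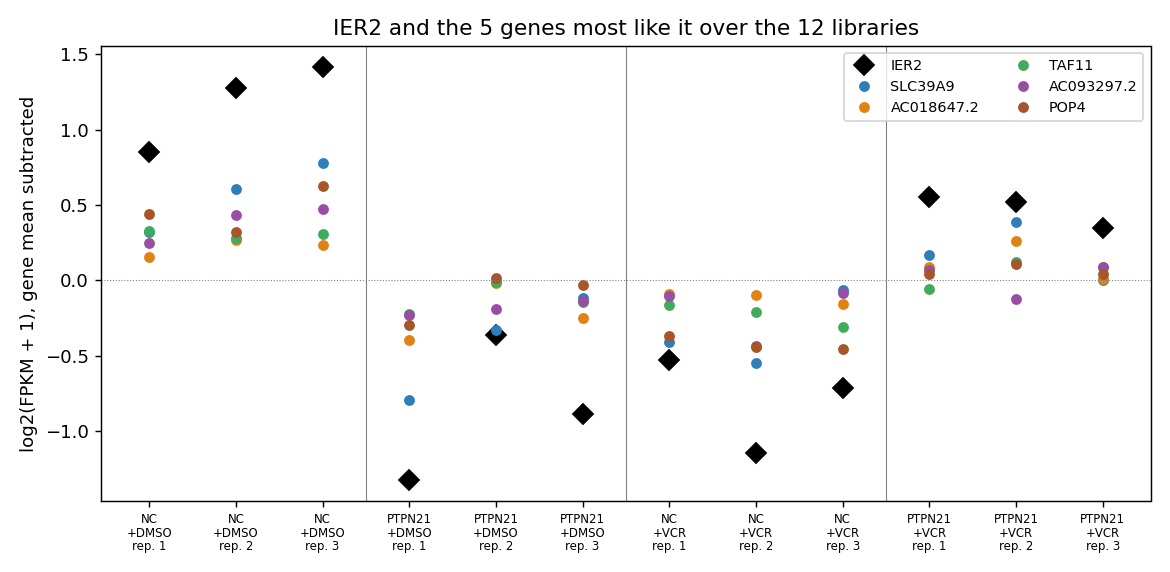
Level of IER2 (diamonds) and of the 5 genes most like it (circles), as log2(FPKM + 1) with each gene's mean subtracted (vertical axis), in each of the 12 libraries (horizontal axis, by group). IER2 runs from -1.33 to 1.42, and the 5 genes stay between -0.79 and 0.78, on a scale that understates changes of genes with low FPKM.

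The pathway around these genes was described with 5 lists of 81 genes in all, of which 62 reached the minimum. Between PTPN21+DMSO and NC+DMSO, 1 of the 62 passed, where 6.34% of all genes did, with a list median of -0.36 against -0.14 over all genes. Of the 62, 22 had an unadjusted p under 0.05, where 25.6% of all genes had one. The gene that passed was CREBBP, an acetyltransferase that CREB recruits, which fell from 7.48 ± 2.28 to 2.11 ± 1.05 FPKM (SD, n = 3, log2 difference -1.47, limma adjusted p = 0.0371). CREBBP passed in 7 of 22 alternatives, and it did not pass without NC+DMSO replicate 3, without NC+DMSO replicate 1, without PTPN21+DMSO replicate 1 or 3, without any 1 of the PTPN21+VCR replicates, or under median ratio scaling. The direction was lower in all of these. Between PTPN21+VCR and NC+VCR 1 of the 62 passed, where 1.82% of all genes did. An unadjusted p under 0.05 was found for 8 of the 62 and for 17.1% of all genes. The gene that passed was PPP1R15A, a stress-induced subunit of protein phosphatase 1, which fell from 379.9 ± 34.8 to 200.2 ± 14.1 FPKM (log2 difference -0.92, standard error 0.117, limma adjusted p = 0.0033). It passed in 23 of 23 alternatives. The interaction had 0 of the 62 in limma, where 0.129% of all genes passed. It had 11 of the 62 at an unadjusted p under 0.05, where 14.0% of all genes had one.

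Other immediate early genes moved both ways with VCR, while the summed erythroid markers, nearly all HBA1, were lower in all VCR libraries. The part of the markers in these changes was not tested. In NC cells 3 of the 21 tested rose and 3 fell, with a list median of 0.25 against -0.36 over all genes. Of all genes tested, 7.91% were called higher and 28.3% lower in this comparison. KLF6, a zinc-finger factor, rose from 6.93 ± 1.78 to 22.2 ± 4.05 FPKM (SD, n = 3, log2 difference 1.56, limma adjusted p = 0.000159), with SGK1, a kinase, at 0.74 and ZFP36L2, which binds AU-rich RNA, at 0.57. The kinase PIM1 fell by 1.12 on the log2 scale, and ID1 and ID3, inhibitors of helix-loop-helix factors, fell by 1.13 and 0.84. Under median ratio scaling ID1 and ID3 kept the direction and lost the call. Here and in the next paragraphs, KLF6, CSRNP1, MEF2A and HDAC7 were named by a rule that takes the largest called changes, so their sizes are selected ones. The other called genes were named after their values were seen.

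In PTPN21 cells 7 of the 21 rose with VCR and 3 fell, with a list median of 0.39 against -0.17 over all genes. Of all genes tested, 9.22% were called higher and 19.3% lower in this comparison. KLF6 rose from 5.77 ± 0.438 to 23.8 ± 3.58 FPKM (SD, n = 3, log2 difference 1.87, limma adjusted p = 4.9e-05) and CSRNP1, a nuclear factor, from 1.30 ± 0.250 to 4.15 ± 0.835 (log2 difference 1.15, limma adjusted p = 0.0355). The other 5 that rose were TIPARP, CD69, SGK1, MCL1 and TNFAIP3, between 0.68 and 0.97, and those that fell were PIM1, ID1 and PPP1R15A. MCL1 had an SD of 10.7 around a mean of 20.1 FPKM in PTPN21+VCR and lost its call with TPM scaling. PPP1R15A and ID1 lost theirs with the GC and length correction. KLF6 passed in 23 of 23 alternatives and CSRNP1 in 15 of 22. CSRNP1 lost its call without any 1 of the 6 libraries of these groups. In NC+VCR the SD of CSRNP1 was 3.01 around a mean of 4.63 FPKM.

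Genes upstream in the pathway were also counted. Of 12 RAS-ERK genes tested, 3 fell in NC cells, ARAF by 0.96, BRAF by 0.94 and the ribosomal S6 kinase RPS6KA1 by 0.97, and the same 3 fell in PTPN21 cells, where 28.3% and 19.3% of all genes were called lower. Under median ratio scaling 2 of the 3 kept the call in NC cells and 1 of the 3 in PTPN21 cells, and under the GC and length correction 0 and 1 did. Of 10 genes of calcineurin, NFAT and MEF2, 1 rose and 4 fell in NC cells, where 7.91% of all genes were called higher and 28.3% lower. In PTPN21 cells 1 rose and 2 fell, where these shares were 9.22% and 19.3%. MEF2A rose from 5.01 ± 1.52 to 17.2 ± 2.71 FPKM in NC cells (SD, n = 3, log2 difference 1.62, limma adjusted p = 0.00102) and HDAC7, a histone deacetylase that represses MEF2 targets, fell from 18.6 ± 7.25 to 6.02 ± 1.39 (log2 difference -1.44, limma adjusted p = 0.00271). In PTPN21 cells MEF2A rose by 1.03 and HDAC7 fell by 1.94. The others that fell were PPP3R1, NFATC3 and CABIN1 in NC cells and CABIN1 in PTPN21 cells. Under median ratio scaling NFATC3 and CABIN1 lost the call in NC cells, and the 3 genes of this list called in PTPN21 cells kept theirs.

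Of 13 SRF and CREB factors and EGR corepressors, ELK3 and CREB1 rose and CREBBP fell in NC cells, and ELK3 alone rose in PTPN21 cells. Of all genes, 7.91% were called higher and 28.3% lower in NC cells, and 9.22% higher in PTPN21 cells. Of 6 partners of the NR4A and IER proteins tested, the retinoid receptor RXRB and HSF1, the partner of IER5, fell in NC and in PTPN21 cells. RXRB fell by 1.36 and 0.68 and HSF1 by 0.72 and 0.78, where 28.3% and 19.3% of all genes were called lower. Under median ratio scaling only RXRB in NC cells kept its call. Over the 5 lists, 6 genes rose and 13 fell in NC cells, and 9 rose and 10 fell in PTPN21 cells. That made 19 of the 62 in each, where 36.2% and 28.5% of all genes were called. All of these genes kept their direction under 4 other scalings (TPM, median ratio, quantile normalization and the GC and length correction), but the split of the calls depended on the scaling, and under median ratio scaling 12 rose and 7 fell in NC cells, and 12 rose and 6 fell in PTPN21 cells. Without PTPN21+VCR replicate 2, 7 genes passed in PTPN21 cells in place of 19, and without PTPN21+DMSO replicates 1, 2 or 3 in turn 9, 11 and 12 passed.

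**Figure D4:**
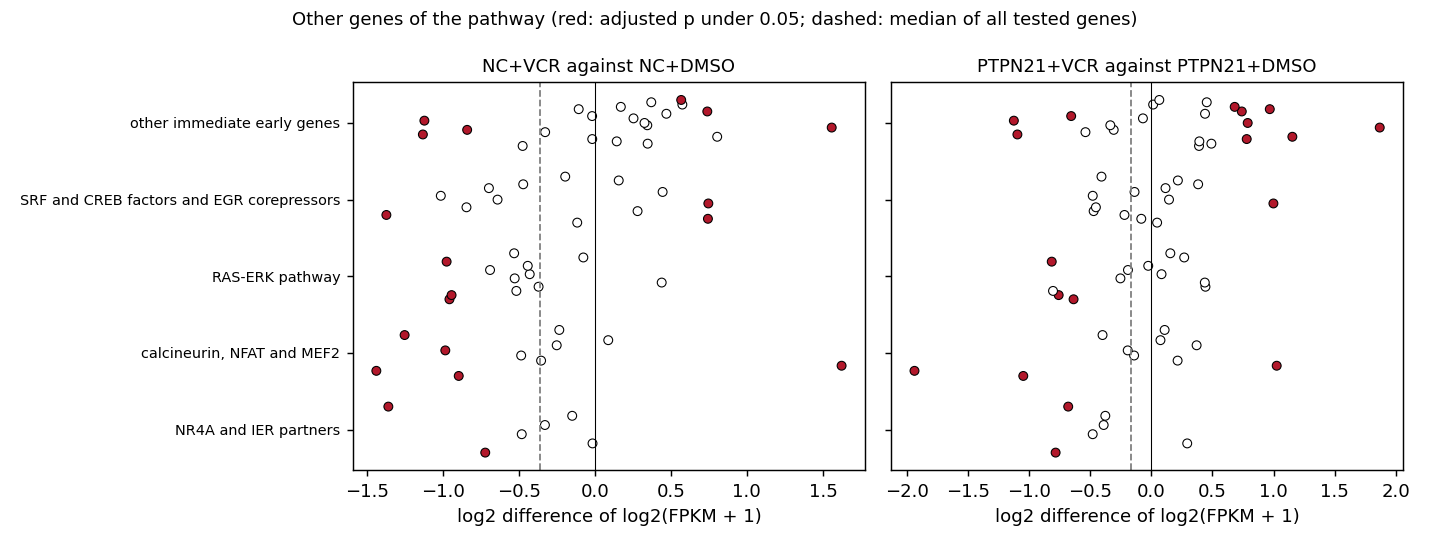
Log2 difference of log2(FPKM + 1) with VCR (horizontal axes) for the 62 other genes of the pathway in 5 lists (rows), in NC cells (left) and PTPN21 cells (right), with red for a limma adjusted p under 0.05 and a dashed line for the median of all genes tested. The other immediate early genes have medians of 0.25 and 0.39, to the right of the dashed lines at -0.36 and -0.17.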

How the data were processed

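RNA-seq was analysed for 12 libraries, 3 in each of 4 groups taken from the sample labels. The authors deposited 1 table of FPKM for 60671 genes with Ensembl identifiers, made by a commercial company. The submitters' processing notes name fastp, Bowtie2 and mm10, a mouse build, while the identifiers are human. The counter, the annotation and a human build are not given in the sources used here. GENCODE release 29 (GRCh38), which holds 58453 (96.3%) of the identifiers, gave positions, lengths and GC content.

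The deposited FPKM were put on the log2(FPKM + 1) scale, which understates changes of low genes, and 11591 genes whose mean FPKM reached 1 were fitted in limma 3.58.1 (R 4.3.3) with an intensity trend, as 1 model of the 4 group means. Adjustment was by Benjamini-Hochberg over every gene fitted, and the threshold was 0.05. The fit and the depth estimate were tested on simulated data. Depth was estimated from 8708 single-exon genes over 500 bases, and a step of 1 fragment and of 2 cannot be told apart. It limits mainly genes of low FPKM, and fragment numbers per gene are approximate.

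The 8 genes, the pathway lists and the markers were chosen with earlier results of these data known. Some items that had been listed are not reported here and stand in none of the counts or sums of these lists. In the pathway lists, the genes named by rule were up to 3 per comparison with the largest change among those past the threshold. The 5 genes most like IER2 were taken by Pearson's correlation. Replicates of a group correlated at 0.939 to 0.976. No library was dropped or imputed in the fit reported.

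Alternatives were quantile normalization, scaling to TPM or by median ratios, a pseudocount of 0.1, no minimum, a higher minimum (mean FPKM 5), no trend, only the groups compared, a replicate block, a correction for GC content and length (99.3% of genes had both) and leaving out each library. Tests on counts were not run, since the values are FPKM. Tables and plots came from Python 3.11.15 (matplotlib 3.10.9, numpy 2.4.6, pandas 2.3.3).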

Additional observations from a re-analysis of the deposited data

Results flagged for a closer look

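IER2 moved in opposite directions with PTPN21 under the 2 treatments. The log2 difference of PTPN21 from NC cells was -2.04 with DMSO and 1.27 with VCR, and in each the 3 libraries of a group did not overlap with those of the other. The difference between these values was not tested, because IER2 was chosen on it. Over 23 alternatives the value with DMSO stayed between -2.29 and -1.81 and the value with VCR between 1.09 and 1.44. Many of these cannot move the values, such as another minimum, no trend, only the groups compared, the replicate block or leaving out a library of another group. As IER2 was chosen on these values, the ranges are a description. The other 4 genes with a test had no opposite pair of this kind without overlap. Since IER2 was chosen for its opposite directions, this contrast follows from the choice and carries no weight. How many of all genes tested had such a pair was not counted, so the pattern is not shown to be particular to IER2.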

How the results depend on the processing

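IER3 and IER5 kept their rise and their call in both VCR comparisons under 23 of 23 alternatives. For all tested genes, many alternatives leave the log2 difference as it was and can change only its p-value. Examples are another minimum, no trend, the replicate block or leaving out a library of another group. Of the values of the 4 tested genes under alternatives, 426 kept direction and side of the threshold, 20 changed sign and 5 gained a call. Of the values of IER2, which has no test, 107 moved by less than the spread between replicates and 7 by more. Many of the 107 could not move, since alternatives such as no trend or the replicate block leave a difference of group means as it was. The gains were those of EGR1 for VCR in NC cells, at -0.60 with the higher minimum (mean FPKM 5) and without the trend, -0.70 with TPM scaling, -0.74 without NC+VCR replicate 3 and -0.60 without PTPN21+DMSO replicate 1. The same difference shrank to -0.26 with median ratio scaling, -0.22 with quantile normalization and -0.16 with the GC and length correction. All reversals were of differences that had no call. IER5 between PTPN21+DMSO and NC+DMSO was 0.15 with median ratio scaling, 0.18 with quantile normalization and 0.094 with the GC and length correction (0.094 with the replicate block as well), and -0.14 to 0.11 when 1 library was left out. IER3 for PTPN21 with VCR was -0.035 with the GC and length correction, with or without the replicate block. EGR1 ran from -0.0013 to 0.24 for PTPN21 with VCR and from -0.028 to 0.32 for VCR in PTPN21 cells when 1 library was left out. NR4A1 for VCR in NC cells was -0.043 with TPM scaling and -0.26 to 0.28 when 1 library was left out, for VCR in PTPN21 cells it ran from -0.10 to 0.44 likewise, and its interaction was -0.031 with quantile normalization and -0.13 to 0.45. IER2 for VCR in NC cells was -1.63 with median ratio scaling, -1.62 with quantile normalization and -1.42 with the GC and length correction (also with the replicate block), for VCR in PTPN21 cells 1.92 with that correction, and its interaction was 3.71 with a pseudocount of 0.1. The cause of these shifts was not tested.

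Counts moved more. Between PTPN21+DMSO and NC+DMSO, all genes past the threshold (735) were 177 with no minimum, 321 without the trend, 40 with only the 2 groups, 242 with the replicate block, 436 with the GC and length correction and 201 with both, and from 67 to 1345 when 1 library was left out, with 169, 1345 and 136 when NC+DMSO replicates 1, 2 and 3 were dropped, 67, 418 and 186 for PTPN21+DMSO and 410, 478 and 480 for PTPN21+VCR. Pathway genes there (1) were 0 with a pseudocount of 0.1, with no minimum, with median ratio scaling, without the trend, with only the 2 groups and with the replicate block, 7 with TPM scaling and 3 with quantile normalization, and 0 to 6 when 1 library was left out, with 6 when NC+DMSO replicate 2 was dropped, 2 for any 1 of the NC+VCR replicates and 0 for NC+DMSO, PTPN21+DMSO or PTPN21+VCR replicate 1 or 3. Between PTPN21+VCR and NC+VCR, all genes (211) were 118 with no minimum, 344 with the higher minimum, 72 without the trend, 117 with only the 2 groups, 74 with the replicate block and 104 with block and correction, and from 43 to 354 when 1 library was left out, with 354 when NC+DMSO replicate 3 was dropped, 133, 121 and 109 for PTPN21+DMSO replicates 1, 2 and 3, 71 and 120 for NC+VCR replicates 1 and 2, and 69, 43 and 60 for PTPN21+VCR replicates 1, 2 and 3. For VCR in NC cells, all genes (4192) were 2674 with only the 2 groups. For VCR in PTPN21 cells, pathway genes (19) were 12 with block and correction and 7 to 21 when 1 library was left out. The interaction (15) had 8 genes with no minimum, with the higher minimum, with the replicate block and with block and correction, 28 with TPM scaling, 9 without the trend, 34 with the correction and 7 to 30 when 1 library was left out, with 7, 30 and 23 when NC+DMSO replicates 1, 2 and 3 were dropped, 9 for PTPN21+DMSO replicate 3 and 8, 9 and 9 for PTPN21+VCR replicates 1, 2 and 3. The replicate block changed no call of the 4 genes tested. Replicate numbers did not pair the libraries, since the deviations of 18 pairs with the same number had correlations from -0.145 to 0.0583, and the best match in another group had the same number in 8 of 36 cases. The share of calls for VCR in NC cells that were higher was 55.8% with median ratio scaling, 52.5% with quantile normalization and 55.5% with the correction, against 21.9%. In PTPN21 cells it was 52.3%, 51.6% and 51.8%, against 32.3%. For PTPN21 with DMSO it was 73.4%, 54.5% and 64.7%, and 20.5% with TPM scaling, against 41.8%, for PTPN21 with VCR 31.6% with the correction against 55.0%, and for the interaction 42.9% with TPM scaling against 20.0%. For VCR, the pathway genes in NC cells had 63.2% with median ratio scaling, 72.2% with quantile normalization and 70.6% with the correction, against 31.6%, and those in PTPN21 cells 66.7%, 68.4% and 71.4%, against 47.4%. Tests on counts were not run.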
